A study of Mus musculus with 4 samples.

Results

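Heat shock proteins were followed in the developing pontine nucleus of ICR mice, a cell group of the ventral pons that carries cortical signals to the cerebellum. The set held 10 listed genes: the small heat shock proteins Hspb1, Hspb6 and Hspb8, the HSP70 chaperones Hspa5 and Hspa8, the HSP90 chaperones Hsp90aa1 and Hsp90ab1, the HSP110 chaperone Hsph1, the co-chaperone Dnajb1 and the transcription factor Hsf1. The list was chosen from an earlier view of these arrays, in which Hspb1 was high on the array labelled P14, with relatives added by name to see whether that level was shared. Hspb1 on that array is therefore a description. Of the 10 genes, 8 were named by a probe set with a single gene symbol, among 19938 named genes in all. Hsp90ab1 and Hsf1 were not matched to a probe set in the gene table used here and are not analysed. All 8 matched genes were among the 10901 genes that passed a level filter, which asked for at least 8.41 on the log2 scale on the highest array, which is the median over every probe set with a single symbol.

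The mice were of 4 ages, embryos of day 17.5 (E17.5) and pups of postnatal day 1 (P1), day 5 (P5) or day 14 (P14). Tissue from 27, 16, 13 and 12 mice, in that order, was pooled, and each pool was hybridised to 1 Affymetrix array of labelled whole-transcript cDNA. Every age was thus 1 array with no replicate, so that no test, p-value or replicate error could be had and the difference between pools of 1 age is unknown. The spread that could be measured was that between probe sets of the same gene, over 645 genes with at least 2 probe sets past the filter. For the log2 difference between a pair of arrays, its SD was 0.12 between P1 and E17.5, 0.18 between P5 and either of these, 0.13 between P14 and E17.5, 0.10 between P14 and P1, and 0.14 between P14 and P5.

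Of 10 markers of pontine neurons, 8 passed the filter, with medians of 11.50, 11.10, 11.20 and 11.42 at E17.5, P1, P5 and P14. They included the homeobox gene Barhl1 (12.23, 11.79, 10.83 and 11.61) and the glutamate transporter Slc17a6 (11.44, 11.17, 11.57 and 11.49), whereas Lhx9 and Atoh1 stayed under 8.41 and Lhx2 passed it at E17.5 alone. On the array labelled P5, 5 of the 8 were at least 2-fold lower than at E17.5 (all genes 5.50%). The glutamate transporter Slc17a7 alone was at least 2-fold higher (all genes 11.3%), at 8.16, 9.38, 12.90 and 11.36. For most genes with a wide range, the arrays labelled P5 and P14 did not follow the order of their ages. Of 2120 genes that ranged at least 2-fold, 1835 (86.6%) had a P14 value between, or level with one of, their P1 and P5 values. In 197 (9.29%) the P14 value lay above both. All 11 myelin markers past the filter were highest on the array labelled P5 (all genes 39.7%). Their median levels were 7.36, 8.15, 12.81 and 9.31 in the same order. The deposited labels are kept, and any direction involving these arrays rests on them.

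Heat shock proteins are molecular chaperones, which keep other proteins folded. Small heat shock proteins such as Hspb1 hold unfolding proteins without using ATP and pass them on to the HSP70 and HSP90 machines, which refold them with the help of J-domain proteins such as Dnajb1 and of exchange factors such as Hsph1. Some members are made constantly, while others are raised under stress by Hsf1, which binds heat shock elements, inverted repeats of a short GAA unit. In the nervous system, Hspb1 is known from motor and sensory neurons, glia and vessel walls, and mutations in its human counterpart cause inherited neuropathy.

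Promoter sequences from RefSeq (build GRCm38.p6) were matched for 6 of the 10 genes: Hspb1, Hspb6, Hspb8, Hspa5, Hsph1 and Dnajb1. The 250 bases before the start are shown for the gene that stood out, for the other small heat shock protein with a wide range, and for the member with the clearest difference of another shape, so that the elements named above can be seen. They are written 5′ to 3′ on the gene's strand. Capitals mark matches to GAANNTTC or TTCNNGAA, pairs of facing and of diverging units, where N is any base.

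Hspb1, chr5:135887669-135887918, plus strand: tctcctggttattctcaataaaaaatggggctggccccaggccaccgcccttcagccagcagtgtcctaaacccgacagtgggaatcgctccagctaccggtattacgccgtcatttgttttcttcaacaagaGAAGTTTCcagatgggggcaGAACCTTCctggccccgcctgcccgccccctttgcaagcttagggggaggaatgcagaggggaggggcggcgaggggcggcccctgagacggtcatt

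Hspb8, chr5:116422865-116423114, minus strand: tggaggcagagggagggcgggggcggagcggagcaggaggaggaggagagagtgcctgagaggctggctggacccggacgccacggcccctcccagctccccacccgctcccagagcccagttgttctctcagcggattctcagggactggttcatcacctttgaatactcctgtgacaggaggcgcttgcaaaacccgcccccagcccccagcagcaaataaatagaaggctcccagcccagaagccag

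Hsph1, chr5:149636337-149636586, minus strand: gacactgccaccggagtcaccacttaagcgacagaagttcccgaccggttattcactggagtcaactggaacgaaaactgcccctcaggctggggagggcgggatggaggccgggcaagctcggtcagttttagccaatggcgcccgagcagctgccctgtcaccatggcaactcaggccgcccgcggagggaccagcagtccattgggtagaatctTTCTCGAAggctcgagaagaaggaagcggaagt

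The Hspb1 window held 2 matches to GAANNTTC, starting 117 and 97 bases before the start of the gene (GAAGTTTC and GAACCTTC). Hsph1 had 1 match to TTCNNGAA (TTCTCGAA), 33 bases before the start shown. Hspb8 had none. Of the others, Hspa5 and Dnajb1 had none, and Hspb6 had 1 GAANNTTC, 120 bases before the second of its 2 starts. Each motif reads the same on both strands, and the 2 overlap wherever 3 units are joined, which was not seen in any of the matched members' windows. GAANNTTC occurred in 6.69% of 32851 promoter windows of the same length and TTCNNGAA in 7.17%, whereas 2 or more GAANNTTC matches, as in Hspb1, occurred in 75 windows (0.228%). A match describes the letters and is not evidence of binding.

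Hspb1, a small heat shock protein that also binds actin, had log2 signals of 8.26 at E17.5 and 8.06 at P1, then 8.78 on the array with the P5 label and 10.19 on that with the P14 label. It was high on 1 array alone, and the lower values lay within 0.72 of each other. The difference between the arrays labelled P14 and P5 was 1.41 on the log2 scale, or 2.66-fold, beside an SD between probe sets of 0.14. Against E17.5 and P1 the array labelled P14 was higher by 1.93 and 2.13, but there the lower level lay under 8.41, near the floor of the filter, so the size is inexact. The E17.5 and P1 arrays themselves were 0.20 apart, beside an SD of 0.12.

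A second Hspb1 probe set gave nearly the same values: 8.30, 8.08, 8.68 and 10.20 in the same order. Its height over the highest other array was 1.52, against 1.41 for the first. Both probe sets are assigned the same transcript records, so they may share probes and are not 2 independent measurements.

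**Figure D1:**
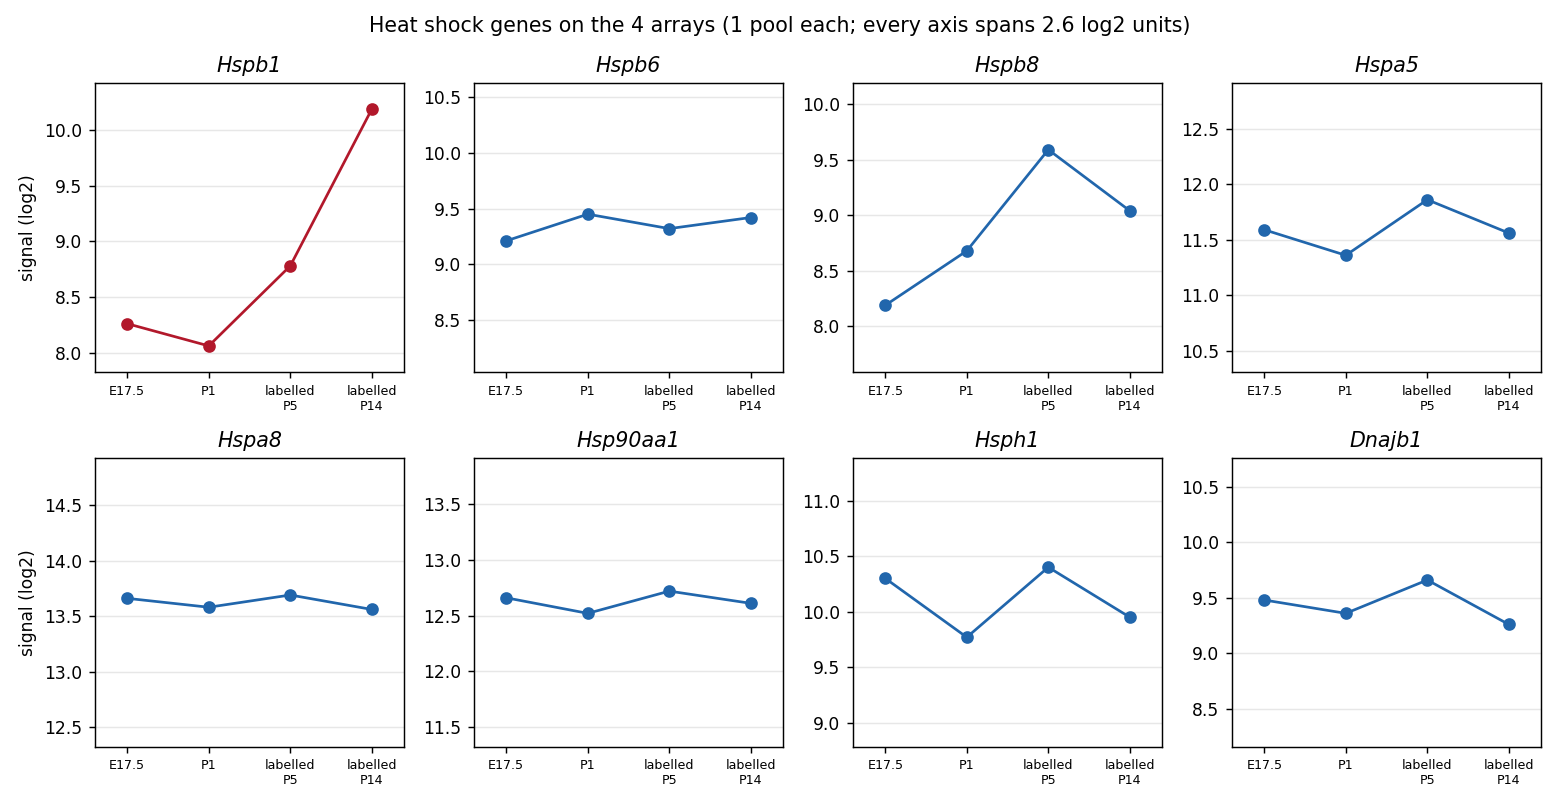
Log2 signal of the 8 matched heat shock genes (vertical axes, each spanning the same 2.6 log2 units) on the 4 arrays (horizontal axes, in the order of the deposited labels), with 1 point per array and no replicates. Hspb1 goes from 8.78 to 10.19 between the arrays labelled P5 and P14, while Hspb8 peaks at 9.59 on the array labelled P5 and the other 6 genes stay within 0.63.

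The height of Hspb1 on the array labelled P14 was not shared by the other members. Of the 8 genes, Hspb1 alone was at least 2-fold higher there than on every other array, where 3 of all 10901 genes (0.0275%) were, with Hspb1 at rank 1. The other 2 were Stum (8.16, 8.92, 8.82 and 9.96) and Cpne7 (7.06, 7.44, 7.55 and 8.55), with heights of 1.04 and 1.00. Just under that size lay Grin2d, an NMDA receptor subunit, at 0.94, and the kinase Prkch at 0.89. The values of the other 7 members on the array labelled P14 lay from 0.03 to 0.55 below their highest array. At any size, 1 of 8 members was thus highest there, near the 11.0% of all genes. Leaving out the array labelled P5, the height of Hspb1 was 1.93 and it was still the sole member at least 2-fold above E17.5 and P1, as were 136 of all genes (1.25%).

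**Figure D2:**
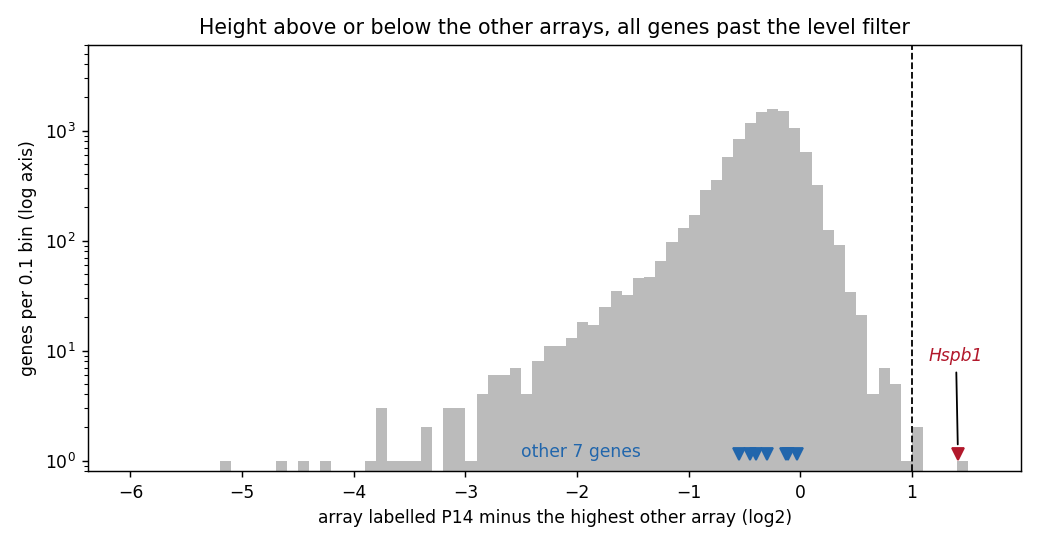
Distribution over 10901 genes of the value on the array labelled P14 minus the highest other array (horizontal axis, log2), with genes per bin on a log axis. Triangles mark Hspb1 at 1.41 and the other 7 genes, which lie between −0.55 and −0.03; the dashed line marks 2-fold.

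Pair by pair, Hspb1 was also the only member at least 2-fold apart in the comparisons with the array labelled P14. Against E17.5 it was 1 of 8 at least 2-fold higher (all genes 4.55%) and none was lower (1.19%). Against P1 it was 1 of 8 higher (1.37%) and none was lower (0.101%), and Hspb1 had the 4th largest difference of all genes. Against the array labelled P5 it was 1 of 8 higher (2.16%) and none was lower (4.50%). Apart from Hspb1, the members differed by −0.35 to 0.85 from E17.5, by −0.10 to 0.36 from P1 and by −0.55 to 0.10 from the array labelled P5. These comparisons share the array labelled P14 and are not independent of each other or of how the list was chosen.

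Hspb8, a small heat shock protein that works with Bag3 in clearing damaged proteins, stood at 8.19, 8.68, 9.59 and 9.04 on the E17.5, P1, P5 and P14 arrays. Its highest array was the one labelled P5, where it was 1.40 above E17.5, a level that lay under 8.41. It was 0.91 above P1, or 1.88-fold, beside an SD of 0.18. On the array labelled P14 it fell between P1 and the array labelled P5, as most genes with a wide range did. Hspb6, a small heat shock protein of muscle and vessel walls, stood at 9.21, 9.45, 9.32 and 9.42, a range of 0.24, and 12.3% of all genes had a smaller one. The 3 small heat shock proteins thus had 3 different shapes.

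Hspa8 and Hsp90aa1, at high levels, varied little. Hspa8, the constitutive HSP70 of the cytosol, stood at 13.66, 13.58, 13.69 and 13.56, and just 2.78% of genes had a range smaller than its 0.13. Its 2 other single-symbol probe sets had ranges of 0.13 and 0.17. A further 2 probe sets, assigned to Hspa8 among several symbols, had lower levels and wider ranges of 0.55 and 0.54. Hsp90aa1, the stress-responsive cytosolic HSP90, stood at 12.66, 12.52, 12.72 and 12.61, a range of 0.20, and 7.96% of genes had a smaller one. Its other probe sets had ranges of 0.16 and 0.15. Both genes have near-identical processed copies in the genome, which their probe sets may also detect. Hspa5, the HSP70 of the endoplasmic reticulum also called BiP, stood at 11.59, 11.36, 11.86 and 11.56, with a range of 0.50 between the array labelled P5 and P1, and 46.0% of genes had a smaller one.

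Hsph1, the exchange factor of HSP70, stood at 10.30, 9.77, 10.40 and 9.95 in the same order. The E17.5 and P5 arrays were high and the P1 and P14 arrays low, with a gap of 0.35 between the pairs. P1 was 0.53 under E17.5, beside an SD of 0.12, and among 10901 genes this difference had rank 10565 from the top. Dnajb1, the J-domain partner of HSP70 and an Hsf1 target, stood at 9.48, 9.36, 9.66 and 9.26. Its E17.5 and P5 arrays were likewise the higher pair, with a gap of 0.12.

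This split, with the E17.5 and P5 arrays both above the P1 and P14 arrays, was seen after the values were known. It held in 5 of the 8 members: Hspa5, Hspa8, Hsp90aa1, Hsph1 and Dnajb1. In all genes it held in 21.1%. The gap was 0.03 for Hspa5, 0.08 for Hspa8 and 0.05 for Hsp90aa1, less than the SD between probe sets of any comparison, and in Hsph1 alone it exceeded each of these SDs. After quantile normalisation of the arrays it held in 3 of 8, namely Hspa8, Hsph1 and Dnajb1, and in 17.4% of all genes. Hspa8 lost the split with the mean of all probe sets and with median centring, so Hsph1 and Dnajb1 alone kept it throughout. Similarly, 6 of 8 members were highest on the array labelled P5 (all genes 39.7%), but 3 of 8 when each array was centred on its median (all genes 32.7%), with Hspa8, Hsp90aa1 and Hsph1 then highest at E17.5.

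Over the 4 arrays, 2 of 8 members, Hspb1 and Hspb8, had a range of at least 2-fold, as did 19.4% of all genes. No member was at least 2-fold higher (0.826% of all genes) or lower (0.275%) at P1 than at E17.5. This comparison takes neither the array labelled P5 nor the one labelled P14. The median was −0.13 in the members and −0.06 in all genes. On the array labelled P5, 1 of 8 was at least 2-fold higher than at E17.5 (11.3%), namely Hspb8, and none lower (5.50%). Against P1, none was at least 2-fold higher (8.96%) or lower (3.94%), and the median was 0.40 in the members and 0.05 in all genes.

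The wider chaperone system was read from gene lists drawn up by family. Those of small heat shock proteins, HSP70 and HSP110, HSP90, J-domain proteins, co-chaperones, chaperonins, heat shock factors with their regulators, stress-inducible targets and endoplasmic reticulum stress genes held 110 genes past the filter. Hspb1 alone was at least 2-fold highest on the array labelled P14; at 0.0275% of all genes, no second such gene among 110 is what the background gives. At any size, 7 of the 110 (6.36%) were highest there, beside 11.0% of all genes. The next was Hspa1a, the stress-inducible HSP70, at 8.56, 8.60, 8.54 and 8.69, a height of 0.09. A probe set assigned to both Hspa1a and its near-identical copy Hspa1b stood at 9.76, 9.93, 9.72 and 10.23, a height of 0.30. The heat shock factor binding protein Hsbp1 followed at 0.07 and the myosin chaperone Unc45a at 0.06.

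Among 17 stress-inducible heat shock targets past the filter, the median difference of the array labelled P14 was −0.08 against E17.5, 0.09 against P1 and −0.28 against the array labelled P5. Against E17.5, Hspb1 and Cryab (1.06) were at least 2-fold higher (all genes 4.55%) and none was lower (1.19%). Against P1, Hspb1 was higher (1.37%), with Cryab just under that size at 0.99, and none was lower (0.101%). Against the array labelled P5, Hspb1 was higher (2.16%), and Cryab and Hspa4l were lower (4.50%). Hspd1 and Hspe1, the mitochondrial chaperonin pair, stood at 10.94, 10.75, 11.17 and 10.86, and at 10.84, 10.93, 10.66 and 10.65. Of the heat shock factors, Hsf2 was highest at E17.5, with 10.26, 9.94, 9.51 and 9.59, and Hsf4 and Hsf5 did not pass the filter. In the 26 endoplasmic reticulum stress genes past the filter, the median difference of the array labelled P14 against P1 was 0.06, with none at least 2-fold apart; Hsp90b1, the HSP90 of that compartment, stood at 11.39, 11.20, 11.67 and 11.54.

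Other chaperones were highest on the array labelled P5, at shares near those of all genes. Of the 110 genes, 53 (48.2%) were highest there, beside 39.7% of all genes, and 4 (3.64%) were at least 2-fold above every other array, beside 4.17%. Cryab, the small heat shock protein alpha-B crystallin, made in oligodendrocytes among other cells, stood at 8.22, 8.29, 11.74 and 9.28 and was 5.50-fold above its next highest array. The HSP70 relative Hspa2 stood at 7.58, 7.50, 9.79 and 8.07, Hspa4l at 9.73, 9.74, 11.16 and 10.01, and the mitochondrial J-domain protein Dnajc15 at 8.59, 8.72, 10.11 and 9.07. Bag3, the co-chaperone of Hspb8, stood at 7.92, 7.96, 9.47 and 8.55. Its order of arrays was that of Hspb8, but also that of Cryab, Hspa4l and Dnajc15. The myelin markers given above moved with these genes. All 11 were at least 2-fold lower on the array labelled P14 than on the one labelled P5 (all genes 4.50%). Cryab was lower there by 2.46, whereas Bag3 and Hspb8 were lower by 0.92 and 0.55, less than 2-fold. The part of the myelin markers in the levels of Hspb8, Cryab and Bag3 was not tested. In pooled tissue, fewer cells of a type and less RNA per cell cannot be told apart.

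**Figure D3:**
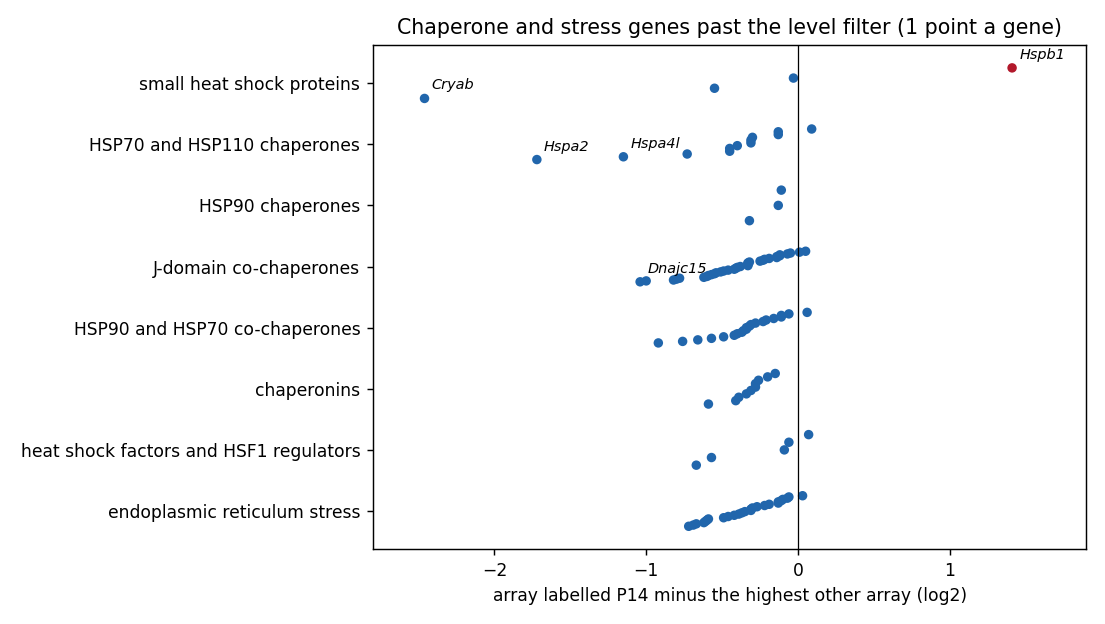
Value on the array labelled P14 minus the highest other array (horizontal axis, log2) for each chaperone or stress gene past the level filter, by list, with 1 point per gene. Hspb1 lies at 1.41, the next highest gene at 0.09, and Cryab at −2.46.

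The genes whose pattern over the 4 arrays was nearest to that of Hspb1 were found by the root mean square difference between deviations from each gene's own mean. The nearest was Igf2, an insulin-like growth factor of meninges and vessels, at 9.97, 9.65, 10.85 and 11.57, with a root mean square difference of 0.25 on the log2 scale. Grin2d (0.34), the copine Cpne7 (0.36), the tektin Tekt5 (0.37), the protease inhibitor A2m (0.38) and Dbpht2 (0.39) came next. With 4 points per gene, such likeness is a description of these arrays. Of the other members, Hspb8 came nearest at 0.77, rank 1469 of 10487 named genes. The nearly flat Hspb6, with a range of 0.24, stood at 0.81, so the rank of Hspb8 shows little likeness to Hspb1.

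Markers of meninges and fibroblasts were also high on the array labelled P14. Of 10 such genes, 7 passed the filter, and 5 of the 7 were highest there (all genes 11.0%), among them Igf2, the collagens Col1a1 (8.82, 8.77, 9.15 and 9.72) and Col1a2 (8.49, 8.47, 9.31 and 9.63) and the proteoglycan Dcn (7.25, 7.16, 9.35 and 9.82). Their median levels were 8.49, 8.47, 9.35 and 9.72. Slc6a13 and Ptgds were highest on the array labelled P5, and Lum, Aldh1a2 and Foxc1 stayed under 8.41 on every array. These markers moved with Hspb1 in part, the larger step in their median lying between P1 and the array labelled P5 and that of Hspb1 between the arrays labelled P5 and P14. Their part in the Hspb1 level was not tested.

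**Figure D4:**
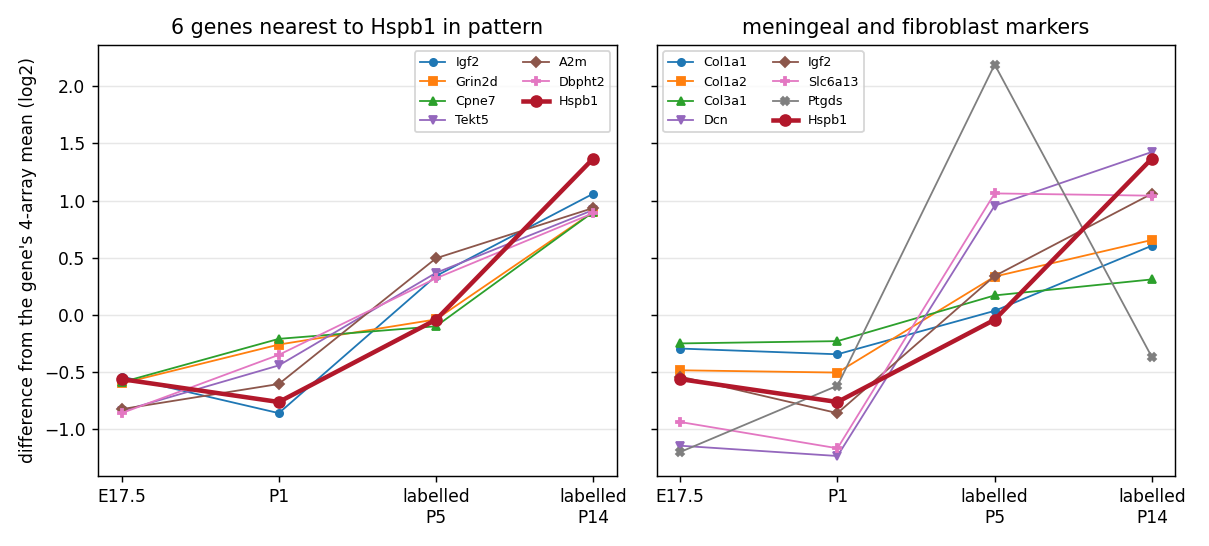
Difference of each gene from its own mean over the 4 arrays (vertical axis, log2) for Hspb1 with the 6 genes of nearest pattern (left) and with the 7 meningeal and fibroblast markers past the filter (right), 1 point per array. Igf2, in both panels, stands at 11.57 on the array labelled P14, and Ptgds departs from the rest with its highest value on the array labelled P5.

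Markers of other cell types that can make Hspb1 are given as levels, beside the 11.0% of all genes that were highest on the array labelled P14; their part in the Hspb1 level was likewise not tested. Of 15 astrocyte markers, 4 were highest on the array labelled P14 and 11 on the one labelled P5, and their median levels were 9.57, 10.37, 11.81 and 11.23. Of 4 reactive astrocyte markers past the filter none was highest on the array labelled P14. Serpina3n stood at 7.62, 9.02, 10.92 and 10.39, whereas Vim stood at 12.80, 12.69, 11.73 and 12.70, and Osmr and S1pr3 were highest on the array labelled P5. Microglial markers had medians of 8.43, 8.66, 9.35 and 8.82, with 4 of 11 highest on the array labelled P14. Endothelial markers had medians of 9.20, 9.00, 9.34 and 9.29, with 4 of 10 highest there, and mural and smooth muscle markers 8.72, 8.63, 9.33 and 8.94, with 1 of 7. The markers highest there stood little above their next array. Their height was at most 0.31 in astrocytes (Sox9), 0.16 in microglia (Trem2), 0.14 in endothelium (Cldn5) and 0.05 in mural cells (Vtn). The SD between probe sets for this height was 0.13.

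The cholinergic and motor neuron markers that passed the filter were low on the array labelled P5. The acetylcholine transporter Slc18a3 stood at 10.01, 9.93 and 7.41 on the E17.5, P1 and P5 arrays and 0.01 below its E17.5 level on the P14 array, and the choline transporter Slc5a7 at 10.31, 10.27, 8.40 and 10.12, the 2 of 8 named markers that passed the filter. Both were higher on the array labelled P14 than on the one labelled P5, as Hspb1 was, and within 0.19 of their E17.5 level. Prph, a filament of motor and sensory neurons, stayed under the filter at 8.03, 8.21, 7.29 and 8.33. The part of these neurons in the Hspb1 level was not tested. Immediate early genes, which respond to activity and handling, had medians of 9.03, 9.14, 9.76 and 9.32, with 1 of 11 highest on the array labelled P14, Nr4a1 (9.03, 9.33, 9.76 and 10.02). On the array labelled P5, 6 of the 11 were highest (all genes 39.7%), and 4 were at least 2-fold higher than at P1 (8.96%). On the array labelled P14, 3 were at least 2-fold lower than on the one labelled P5 (4.50%). Choroid plexus markers did not pass the filter in any of 8 cases.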

How the data were processed

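The authors deposited 1 log2 signal for each probe set and array, processed with Affymetrix Expression Console per the submitters' processing notes. Its version, summary method and normalisation: not given in the sources used here. That the scale is log2 follows from the range of the values, which is 1.84 to 14.72. Of 35556 probe sets, 23410 were listed in the platform's gene table, 21789 with 1 symbol and 1621 with several. Each gene was read from the single-symbol probe set whose mean was highest, and Entrez identifiers were checked against RefSeq. No rescaling was done. Differences were taken between arrays and counted at 2-fold, beside the same count over all genes past the filter. With 1 array per age no test was run, and the number of arrays limits the precision. The steps were checked on simulated data, in Python 3.11.15 with pandas 2.3.3.

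The members and gene lists were chosen with earlier results of these data known. Named genes were all members, the 6 nearest to Hspb1 in pattern, the extremes of each list and a few chaperones fixed by name. Nearest genes left out predicted, unnamed, small RNA and receptor genes of smell. Alternatives were the mean of all probe sets, probe sets with several symbols, median centring, quantile normalisation, a 1.5-fold size and no level filter. Leaving out the array labelled P5, and the order of the arrays in the members, were added after seeing the data.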

Additional observations from a re-analysis of the deposited data

How the results depend on the processing

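Hspb1 was the gene with the greatest height on the array labelled P14, and the sole member at least 2-fold above every other array. This held with the mean of all probe sets, probe sets with several symbols, median centring, quantile normalisation and no level filter. It was also the sole member at the 1.5-fold size, which uses the same values and could not change the height or rank of Hspb1. Probe sets with several symbols and no level filter could not change the height of Hspb1 either. Its height of 1.41 was 1.93 without the array labelled P5, an alternative chosen after seeing the data that takes the maximum over fewer arrays. At 1.5-fold, 2 members in place of 1 differed between the array labelled P14 and E17.5, and 3 in place of 0 between the array labelled P5 and P1, since the size asked for is smaller. Members highest on the array labelled P5 went from 6 to 3 with median centring, and members with E17.5 and P5 both above P1 and P14 from 5 to 3 with quantile normalisation; median centring shifts arrays by up to 0.11 relative to each other and quantile normalisation by up to 0.06, more than the gaps of some members. Of 59 recomputed values, 54 stayed near the first result and 5 moved. Not all of the 59 could move. Every matched member passed the level filter, so leaving it out could change no member value. Probe sets with several symbols left each member value as it was. The 54 is thus not a count of independent checks. Near meant a count equal to the first or within 1.5-fold of it, or an Hspb1 height within 0.13 of the first. A change of sign was possible for the Hspb1 height alone, and none was seen. No paired analysis was possible because each age is 1 array and the labels carry no replicate numbers. Background signal was not measured, so levels under 8.41 give inexact differences.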
